A study of Homo sapiens with 6 samples.

Results

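Expression of 20 genes of lipid, sterol and peroxisome metabolism in AGS cells was compared between vehicle treatment and SSD (saikosaponin D, a triterpenoid saponin of Radix Bupleuri). The genes are the rows, among 1099 of the deposited table, that its annotation column places in 1 of 11 KEGG pathways of fatty acid, glycerolipid, glycerophospholipid, ether lipid, sphingolipid, sterol, bile acid and peroxisome metabolism, or under the gene ontology term for lipid metabolic process. Transporter genes named SLC or ABC were to be left out, as were genes of the lysosome pathway. These criteria first gave 28 rows, of which 8 were left out for the lysosome pathway and 0 as transporters. Of the 20 remaining genes, 15 carried 1 of the pathways, 6 carried the ontology term and 1 carried both. Fatty acid elongation, steroid biosynthesis and biosynthesis of unsaturated fatty acids, 3 of the 11 pathways, had no gene here, and 616 of the 1099 rows carried no KEGG pathway at all.

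AGS is an established human gastric adenocarcinoma line, labelled as wild type in both groups. PolyA RNA was sequenced from 3 vehicle libraries and 3 SSD libraries, all after 24 h. The dose is not settled, because the labels give 10 μM whereas the methods give a lower one, and the protocol fields of the labels name a prostate cancer line and a compound code in place of AGS and SSD. The study's general statistics statement speaks of independent experiments, but neither the labels nor the sequencing methods say whether the 3 libraries of a group came from separate cultures, so p-values measure the spread between these libraries, which may be technical. The table holds only the genes with the smallest p-values of the 11289 that the authors tested, up to a p of 0.00535, so every gene in it had already been selected for a difference between these same libraries. A lipid gene outside the table was not analysed here, and the share of lipid genes that pass a test is partly built in. Counts over the table, which are not the library depth, ran from 3084338 to 4640117, and its genes held 30.1% to 33.1% of each library's TPM, the read share corrected for gene length. Mean counts of the 20 genes ran from 274 to 7576 per library. Of the cell type markers searched, 2 of 11 gastric and epithelial genes were in the table and both were lower under SSD, CDH17 at 46.2 against 36.1 TPM and TFF1 at 74.3 against 46.5 TPM. Of 4 fibroblast markers, VIM rose from 5.73 to 10.5 TPM and COL1A1 had 14.2 TPM with vehicle and 12.3 TPM with SSD, while 0 of 7 prostate and 0 of 3 leukocyte markers were in the table. Because the rows were selected by p, a marker's absence does not show that it is not expressed. The markers therefore cannot check the line. The part of these markers in the values below was not tested, and in bulk RNA fewer cells of a type and less RNA per cell cannot be told apart.

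Peroxisomes break down fatty acids that mitochondria handle poorly, such as very long and methyl-branched chains. Their oxidases make hydrogen peroxide, which catalase removes inside the same organelle, and they supply steps of bile acid and ether lipid synthesis. Fatty acid synthesis in the cytosol starts with acetyl-CoA carboxylase and fatty acid synthase, and the genes of this route, like those of sterol synthesis, are driven by the SREBP transcription factors.

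The 4 peroxisomal enzymes in the table rose under SSD, from 1.25-fold for IDH1 to 1.73-fold for AMACR. Fatty acid synthase, a secreted phospholipase and monoacylglycerol lipase fell, to between 0.78 and 0.86 of their vehicle level. On the reported scale 9 of the 20 genes had higher and 11 lower values under SSD. Of these, 7 rose with an adjusted p under 0.05, against a background of 32.3% of the table, and 4 fell, against 20.8% (quasi-likelihood test of edgeR, p-values adjusted after Benjamini-Hochberg over 11289 genes). The 7 and 4 genes are 35.0% and 20% of the 20, so the shares lie near those of the table and are no result about lipid genes. The genes that rose were AMACR, PHYH, CAT, LPIN2, IDH1, ALDH7A1 and OCRL, and those that fell included PLA2G2A, FASN and MGLL. The changes were small: AMACR alone passed both the test and a 1.5-fold change, which 3.18% of the table did in the upward direction. The median log2 fold change of SSD over vehicle was −0.18 for the 20 genes and −0.14 for the table.

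Fold changes below use a whole-library scale, in which the size of each library is the median ratio of its counts to its TPM. Of the 1099 genes 712 were lower and 387 higher on this scale, and scales taken from the table alone gave higher fold changes. The median shift of the log2 fold changes was 0.08 with TMM normalization, 0.10 with DESeq2 size factors and 0.06 with the table total. On each of these 3 scales 9 of the 20 genes rose and 1 fell, against 35.0%, 35.2% and 35.1% of the table rising and 8.10%, 7.73% and 11.2% falling. The direction of all 20 genes was the same in the 16 alternatives tried, but 3 calls, among them those of PLA2G2A and FASN, were lost on these 3 scales and those of GPCPD1 and LPGAT1 were gained. Counts over the 16 alternatives include settings that could lose no call. The setting without a filter repeats the reported fit, since the filter kept all 1099 genes. Adjustment over the table alone keeps the fold changes and can only keep or gain calls.

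**Figure D1:**
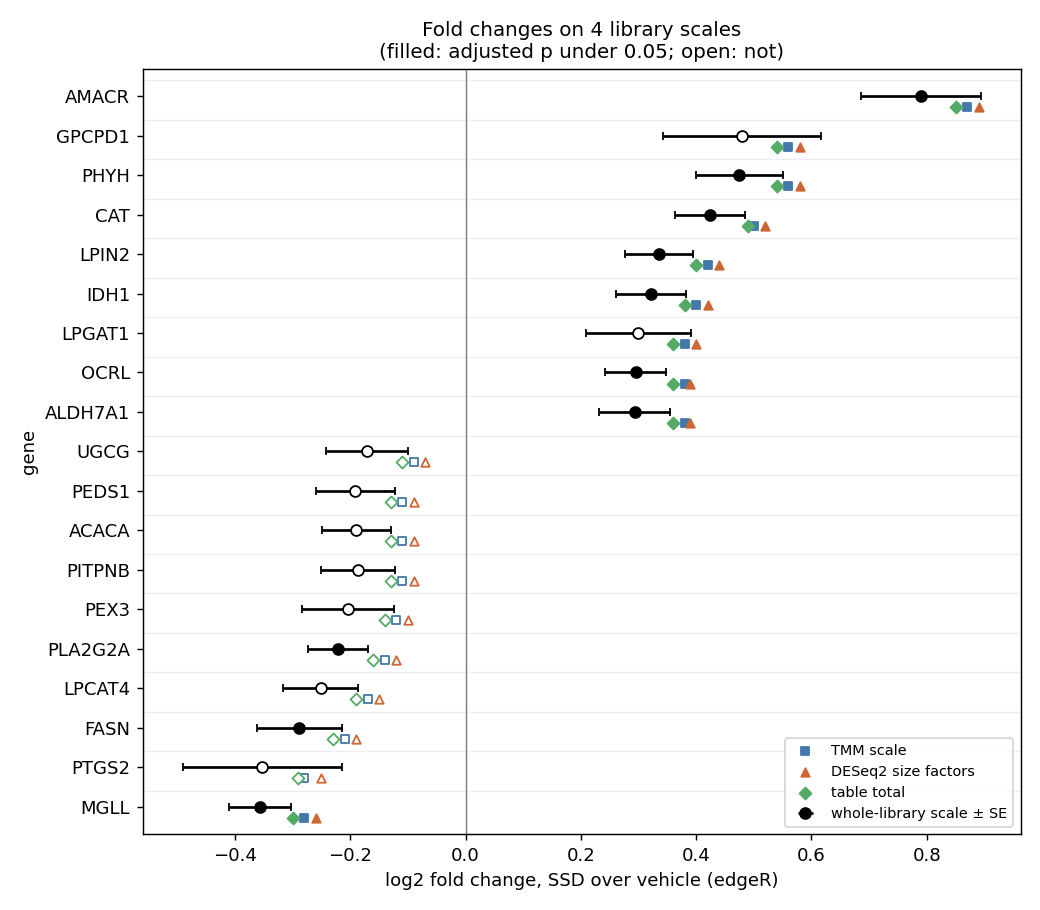
Log2 fold change of SSD over vehicle for 19 of the 20 genes, sorted by value, on the whole-library scale (black circles, bars 1 standard error) and on the TMM, DESeq2 size factor and table total scales (coloured marks below). Filled marks have an adjusted p under 0.05; AMACR stands highest at 0.79, every mark keeps its side of 0, and among the lower genes drawn MGLL alone is filled on all 4 scales.

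The peroxisome pathway held 5 of the 20 genes, of which 4 enzymes rose and the biogenesis factor PEX3 did not pass the test. The table was itself selected by p, and 32.3% of it rose with an adjusted p under 0.05. AMACR (ENSG00000242110, chr5:33986178-34008108 in GRCh38, minus strand) encodes the racemase that turns methyl-branched acyl-CoA and bile acid intermediates into the form that can be oxidised. Its TPM was 18.11, 19.86 and 17.22 in vehicle replicates 1 to 3, and 30.64, 31.57 and 37.23 in SSD replicates 1 to 3. All 3 SSD libraries lay well above all 3 vehicle libraries, with means of 33.1 ± 3.57 and 18.4 ± 1.34 (SD, n = 3 each). The log2 fold change was 0.79 (SE 0.103, adjusted p = 0.0029), or 1.73-fold, the 9th highest value of the 1099 genes, and it ran from 0.66 to 0.87 when single libraries were left out. AMACR shares exonic bases on its own strand with 2 other annotated genes, 1 of them the readthrough gene C1QTNF3-AMACR, and how the authors' counting divided such reads is not given in the sources used here.

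PHYH (chr10:13277796-13302412, minus strand), the hydroxylase that starts the removal of phytanic acid, had 25.84, 24.78 and 27.53 TPM with vehicle, against 36.70, 34.48 and 34.40 with SSD. CAT (chr11:34438925-34472062, plus strand), which encodes catalase, had 25.95, 26.67 and 24.62 TPM with vehicle, against 35.23, 35.18 and 34.37 with SSD. Neither gene's groups overlapped, and the SSD libraries of CAT differed by less than 1 TPM. PHYH rose by 0.47 on the log2 scale (SE 0.0751, adjusted p = 0.00585) and CAT by 0.42 (SE 0.0608, adjusted p = 0.00449). AMACR, PHYH and CAT passed the test in all 16 alternatives, including the loss of any 1 library.

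IDH1 (chr2:208236227-208266074, minus strand), the cytosolic and peroxisomal isocitrate dehydrogenase that makes NADPH, was far more abundant. It had 312.61, 296.68 and 296.10 TPM with vehicle, against 352.78, 366.88 and 422.10 with SSD, with SSD replicate 3 the highest. The groups did not overlap, and the log2 fold change was 0.32 (SE 0.0609, adjusted p = 0.0122). The call was lost without vehicle replicate 2 (adjusted p = 0.066) and without vehicle replicate 3 (adjusted p = 0.0695). It was also lost under limma (0.0509 and 0.0514 with the pseudocounts of 1 and 0.1). IDH1 overlaps the antisense gene IDH1-AS1, and whether strand was used in counting is not stated. PEX3, a membrane protein on which new peroxisomes are built, had 17.27, 19.30 and 19.69 TPM with vehicle, against 15.11, 16.63 and 18.43 with SSD. Its groups overlapped by TPM, and its log2 fold change of −0.20 did not pass the test (adjusted p = 0.321).

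**Figure D2:**
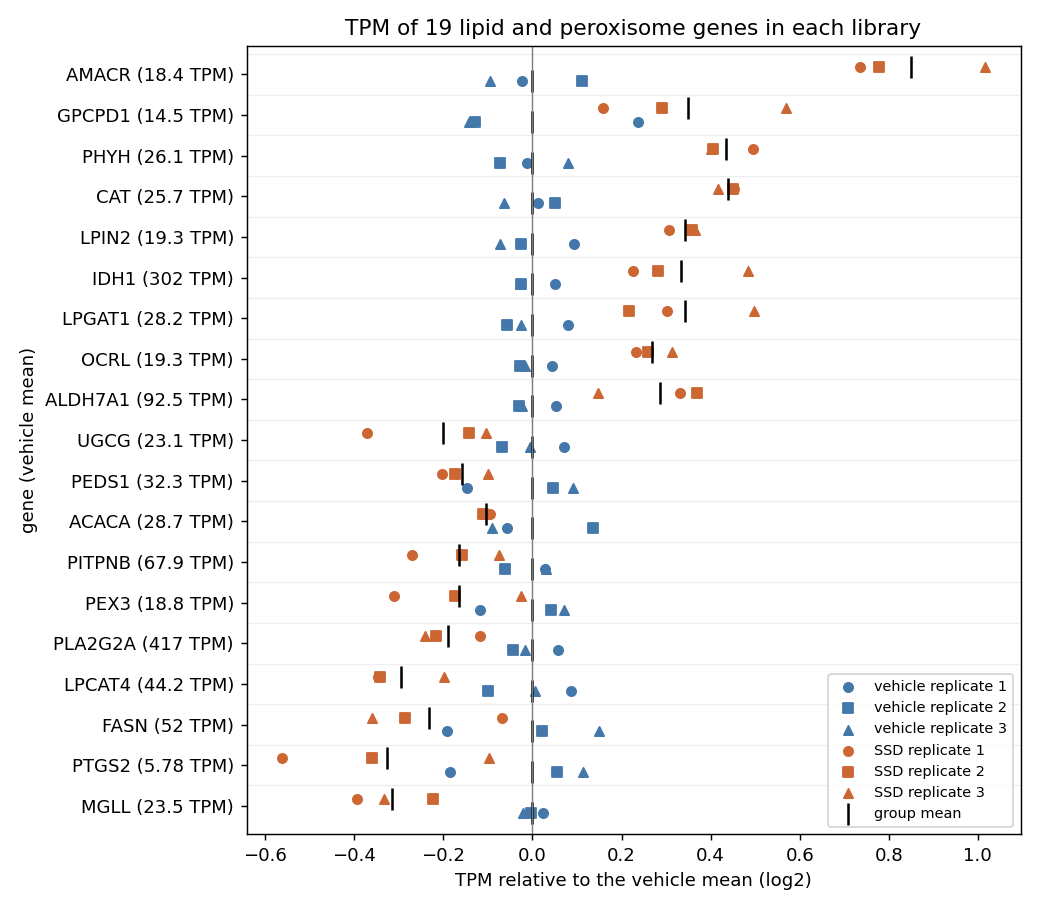
TPM of 19 of the 20 genes in each library as the log2 ratio to its vehicle mean, which is given in TPM beside the gene name; blue marks are vehicle and orange marks SSD libraries, the shape gives the replicate number, and black ticks are group means. AMACR, PHYH and CAT show a gap between the groups, whereas the SSD and vehicle marks of GPCPD1, FASN, PEDS1, PEX3 and PTGS2 overlap.

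The sequence before the start sites of these 4 enzymes, each of which passed on the reported scale, is shown for description. RefSeq promoter windows of 250 bases before a start site (GRCh38.p14) were matched by symbol for 15 of the 20 genes, in 23 windows. The stretches below are the parts of the windows outside every exon of GENCODE release 29, 5′ to 3′, with the CCAAT box, searched as CCAAT on both strands, in capitals:
AMACR (chr5:34008109-34008300, minus strand): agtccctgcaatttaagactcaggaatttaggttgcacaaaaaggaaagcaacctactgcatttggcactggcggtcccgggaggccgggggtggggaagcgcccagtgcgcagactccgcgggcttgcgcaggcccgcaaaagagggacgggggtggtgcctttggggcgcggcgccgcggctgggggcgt
PHYH (chr10:13299764-13299967, minus strand): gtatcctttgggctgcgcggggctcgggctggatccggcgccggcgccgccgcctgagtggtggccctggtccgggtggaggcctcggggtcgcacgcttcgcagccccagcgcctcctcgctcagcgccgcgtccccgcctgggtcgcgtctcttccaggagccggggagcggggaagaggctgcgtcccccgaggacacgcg
CAT (chr11:34438684-34438924, plus strand): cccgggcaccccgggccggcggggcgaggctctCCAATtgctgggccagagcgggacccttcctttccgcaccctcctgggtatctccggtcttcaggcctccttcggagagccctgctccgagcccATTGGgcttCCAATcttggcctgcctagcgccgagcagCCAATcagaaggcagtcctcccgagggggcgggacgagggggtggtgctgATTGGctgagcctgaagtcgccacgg
IDH1 (chr2:208255134-208255246, minus strand): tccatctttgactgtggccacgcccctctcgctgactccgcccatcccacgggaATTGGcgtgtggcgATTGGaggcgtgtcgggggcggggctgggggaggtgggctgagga
The stretches of AMACR and CAT end where the annotated gene begins, whereas those of PHYH and IDH1 lie inside the gene, before the start of shorter transcripts and outside exons. The window of CAT held 5 CCAAT boxes, whose first bases lay 217, 123, 114, 85 and 35 bases before the start. The IDH1 window shown held 2, at 121 and 107 bases, and the other IDH1 window, chr2:208254459-208254708, held 0. AMACR held 1 at 48 bases, inside an annotated exon and so beyond the stretch shown, and PHYH held 0. The box was searched for after the windows had been read, and it occurred in 9 of the 23 windows (39.1%) against 32.0% of all 35116 windows. The E-box core CACGTG, a motif of Myc, the study's subject, was in 1 of the 23 windows (4.35%), a window of LPIN2, against 6.34% of all windows. The sterol regulatory element TCACNCCAC and the peroxisome proliferator response element, 2 copies of AGGTCA set 1 base apart, were in 0 of the 23 windows, and in 0.883% and 0.0171% of all windows. A match is a description of these letters and not a binding site, and FASN, MGLL, PEDS1 and GPCPD1 were among the 5 genes with no window.

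Of the genes of fatty acid synthesis, FASN fell under SSD, but the call depended on the scale. FASN (chr17:82078333-82098332, minus strand), fatty acid synthase, had 45.53, 52.74 and 57.64 TPM with vehicle, against 49.59, 42.61 and 40.48 with SSD. SSD replicate 1 lay above vehicle replicate 1, so the groups overlapped by TPM, though not by counts on the whole-library scale, which were tested. The log2 fold change of −0.29 (SE 0.0737) passed with an adjusted p of 0.0493, the closest to the threshold among the passing genes. Of the 16 alternatives 5 kept the call. It was lost with 5 of the 6 libraries left out in turn, where the adjusted p was 0.0618 without SSD replicate 1, 0.146 without SSD replicate 2, 0.0749 without SSD replicate 3, 0.188 without vehicle replicate 2 and 0.254 without vehicle replicate 3. ACACA, the acetyl-CoA carboxylase that makes malonyl-CoA for FASN, had 27.62, 31.57 and 26.99 TPM with vehicle, against 26.87, 26.60 and 26.69 with SSD. Its SSD values lay just under the lowest vehicle value, and its log2 fold change of −0.19 did not pass (adjusted p = 0.126).

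Of 25 names on a list of sterol genes 2 were in the table, among them INSIG1, which holds the SREBP complex in the endoplasmic reticulum. INSIG1 had 3.40, 3.18 and 2.97 TPM with vehicle, against 4.70, 5.41 and 4.37 with SSD, and rose by 0.66 on the log2 scale (SE 0.137, adjusted p = 0.0176). That call was lost without vehicle replicate 1 (adjusted p = 0.0558), vehicle replicate 2 (0.109), vehicle replicate 3 (0.0767) or SSD replicate 2 (0.105). Under limma it was lost too (0.0724 and 0.0723 with the pseudocounts of 1 and 0.1). MYLIP, a ubiquitin ligase induced by the sterol-sensing liver X receptors, had 11.07, 10.51 and 10.72 TPM with vehicle, against 6.67, 7.39 and 8.89 with SSD, and fell by 0.50 (SE 0.112, adjusted p = 0.0262). It passed in 7 of the 16 alternatives. Among those it failed, the adjusted p was 0.104, 0.0951 and 0.101 without vehicle replicate 1, 2 or 3, 0.076 and 0.133 without SSD replicate 1 or 2, 0.0515 with DESeq2 size factors, and 0.0808 and 0.0842 with limma. INSIG1 and MYLIP carried none of the annotation terms used and are not among the 20 genes.

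MGLL (chr3:127689062-128052190, minus strand), monoacylglycerol lipase, which ends the breakdown of stored fat and degrades an endocannabinoid, was the lower gene least affected by the processing. It had 23.92, 23.48 and 23.16 TPM with vehicle, against 17.90, 20.16 and 18.66 with SSD. The vehicle libraries lay within 1 TPM of each other and all above the SSD libraries. The log2 fold change was −0.36 (SE 0.0545, adjusted p = 0.00515), and it stayed between −0.39 and −0.34 with single libraries left out. MGLL passed in 14 of the 16 alternatives, the exceptions being limma on log2(TPM + 1) and on log2(TPM + 0.1), with adjusted p of 0.0808 and 0.082. ALDH7A1 (chr5:126531200-126595418, minus strand), an aldehyde dehydrogenase best known for lysine breakdown and annotated to fatty acid degradation and glycerolipid metabolism, went the other way. It had 95.95, 90.56 and 91.03 TPM with vehicle, against 116.39, 119.58 and 102.42 with SSD, with no overlap between the groups. It rose by 0.29 (SE 0.0621, adjusted p = 0.0192), a call lost without vehicle replicate 2 (adjusted p = 0.101), vehicle replicate 3 (0.111) or SSD replicate 2 (0.124). The call was also lost under limma (0.082 and 0.0821 with the pseudocounts of 1 and 0.1) and with the replicate number as a block (0.058). ALDH7A1 has 4 named pseudogene copies, whose reads may not be separable from its own.

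Among genes of phospholipid synthesis and signalling, LPIN2 and OCRL rose. LPIN2 (chr18:2916994-3013315, minus strand), a lipin that turns phosphatidate into diacylglycerol, had 20.55, 18.94 and 18.33 TPM with vehicle, against 23.82, 24.70 and 24.81 with SSD. OCRL (chrX:129539849-129592561, plus strand), an inositol phosphatase of the Golgi and endosomes, had 19.87, 18.92 and 19.05 TPM with vehicle, against 22.65, 23.08 and 23.95 with SSD. Both genes had groups that did not overlap, with a tight spread in each. The log2 fold change was 0.34 for LPIN2 (SE 0.0589, adjusted p = 0.00925) and 0.29 for OCRL (SE 0.0526, adjusted p = 0.00994). Both calls were lost without vehicle replicate 2 (adjusted p = 0.0619 for LPIN2 and 0.0749 for OCRL), vehicle replicate 3 (0.0596 and 0.0572) or SSD replicate 2 (0.0549 and 0.0536). They were also lost under limma with the pseudocounts of 1 and 0.1 (0.0596 and 0.0591 for LPIN2, 0.11 with both for OCRL). With the replicate number as a block the adjusted p was 0.0557 for LPIN2 and 0.0555 for OCRL.

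PLA2G2A (chr1:19975431-19980416, minus strand), a secreted phospholipase that releases fatty acids from membrane lipids, had the highest vehicle TPM of the 20 genes. It had 434.08, 404.48 and 412.02 TPM with vehicle, against 384.10, 358.94 and 352.69 with SSD. The groups did not overlap, but the change was the smallest that passed: PLA2G2A fell by 0.22 on the log2 scale (SE 0.0521, adjusted p = 0.0312). The adjusted p was 0.421 on the TMM scale, 0.776 with DESeq2 size factors and 0.193 with the table total, and 0.126, 0.102, 0.12 and 0.202 without vehicle replicate 1, 2 or 3 or SSD replicate 2. Under both limma settings it was 0.133, and with the replicate number as a block 0.0685.

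Of the other glycerophospholipid genes, GPCPD1, which splits glycerophosphocholine, had a log2 fold change of 0.48 on the whole-library scale, as large as that of PHYH, but a wider spread. On log2 TPM with the pseudocounts of 1 and 0.1, limma gave 0.42 and 0.43 for PHYH, but 0.33 and 0.35 for GPCPD1. Its TPM was 17.06, 13.24 and 13.12 under vehicle and 16.16, 17.71 and 21.48 under SSD. Vehicle replicate 1 lay above SSD replicate 1 by TPM, and the gene did not pass (SE 0.137, adjusted p = 0.0852). It did pass on the TMM scale (adjusted p = 0.0484), without vehicle replicate 1 (0.0246) and without SSD replicate 1 (0.0498). LPGAT1, which adds acyl chains to lysophospholipids, had 27.11 to 29.84 TPM with vehicle, against 32.81 to 39.82 with SSD (adjusted p = 0.114, but 0.0248 on the TMM scale and 0.02 without SSD replicate 1). LPCAT4, another acyltransferase of this kind, had 41.29 to 46.99 TPM with vehicle, against 34.78 to 38.55 with SSD, and its log2 fold change of −0.25 came just short of the threshold (SE 0.0655, adjusted p = 0.0531, and 0.024 without SSD replicate 3).

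The 3 genes annotated to ether lipid metabolism all had lower values under SSD, but PLA2G2A alone passed. Most of the 1099 genes were also lower on the whole-library scale, and 20.8% of the 1099 fell with an adjusted p under 0.05. The shared direction of these 3 genes is therefore no result about ether lipid genes. PEDS1, the desaturase that completes plasmalogens, had 29.12, 33.31 and 34.37 TPM with vehicle, against 28.01, 28.60 and 30.11 with SSD, with groups that overlapped by TPM and an adjusted p of 0.235. In GENCODE it is named TMEM189 and shares exonic bases with the readthrough gene TMEM189-UBE2V1. PITPNB, which carries phosphatidylinositol between membranes, and UGCG, which makes glucosylceramide, had log2 fold changes of −0.19 and −0.17 (adjusted p = 0.193 and 0.429), and PITPNB passed without SSD replicate 3 (0.0303). PTGS2, the inducible cyclooxygenase that starts prostaglandin synthesis, was the least abundant of the 20 genes. It had 5.08, 6 and 6.25 TPM with vehicle, against 3.91, 4.50 and 5.40 with SSD. SSD replicate 3 lay above vehicle replicate 1, and the log2 fold change of −0.35, near that of MGLL, had a larger error (SE 0.138, adjusted p = 0.326). PTGS2 passed without SSD replicate 3, with an adjusted p of 0.0274.

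By TPM alone, the groups did not overlap for 8 genes that were higher and 7 that were lower under SSD, against 32.2% and 44.2% of the table. An exact two-sided permutation test of each of these gives p = 0.1, the smallest that 3 libraries against 3 allow. By counts on the whole-library scale, the groups of FASN, GPCPD1, PEDS1 and PEX3 did not overlap, whereas those of LPGAT1 and UGCG did.

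**Figure D3:**
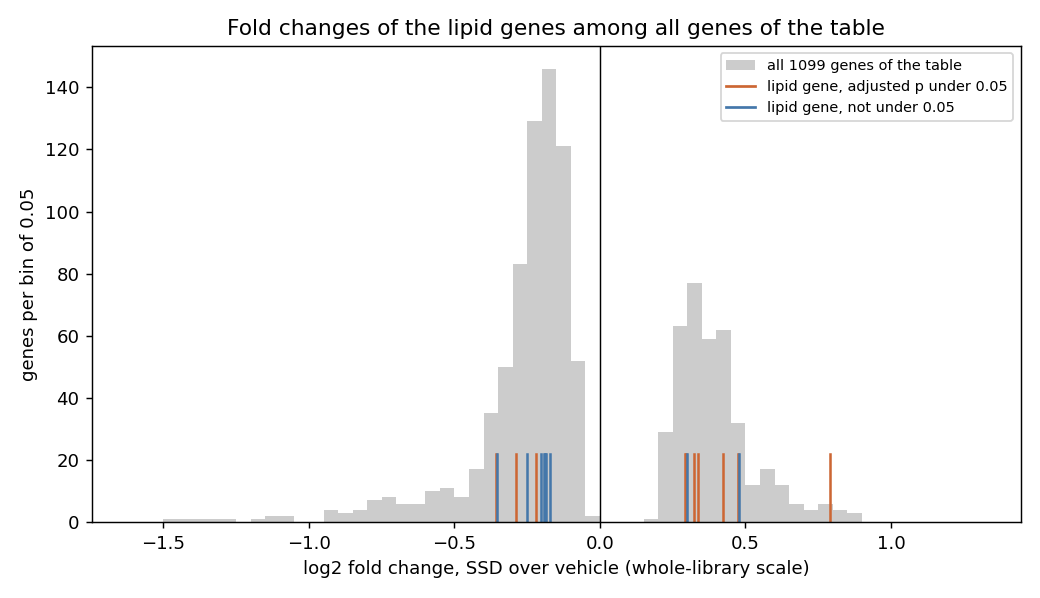
Histogram of the log2 fold changes of all 1099 genes on the whole-library scale, in bins of 0.05, with 19 of the 20 lipid genes as vertical lines (orange with an adjusted p under 0.05, blue without; line height has no meaning). The table, which was selected by p, holds few genes near 0, and the lipid genes lie within both of its humps, with AMACR near the upper end at 0.79.

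LPIN2, LPGAT1 and PITPNB overlap annotated genes on the other strand, and PEX3 shares exonic bases with a further gene on its own, so some of their reads may belong to those genes. How the calls held up differed between the genes. Without any 1 of the 6 libraries, 4 genes passed throughout: AMACR, PHYH, CAT and MGLL. Without vehicle replicate 2 or vehicle replicate 3, these 4 were the genes still called, 3 higher and 1 lower. Without SSD replicate 2 IDH1 also passed, with an adjusted p of 0.0459. In the whole table, 115 genes were called higher and 68 lower without vehicle replicate 2. Without vehicle replicate 3 the table had 128 higher and 71 lower. How many genes of the table passed without any 1 of the 6 libraries is not given here. The count of 4 therefore has no background and is no result about lipid genes.

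**Figure D4:**
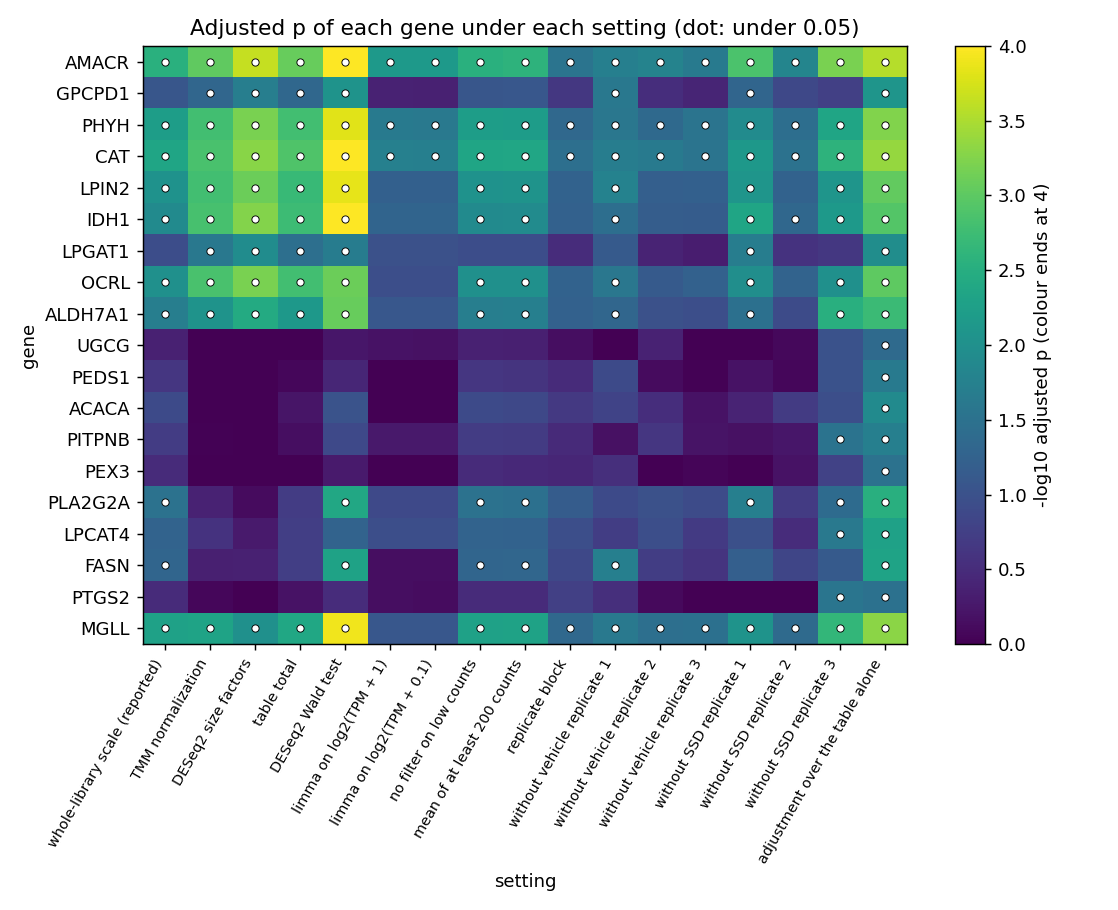
Adjusted p of 19 of the 20 genes (rows) under the reported setting and the 16 alternatives (columns), as −log10 in colour, with a dot where it is under 0.05. The rows of AMACR, PHYH and CAT have a dot in every column, MGLL lacks one under both limma settings, and the column adjusted over the table alone has a dot in every row.

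Lists of lipid genes written from general knowledge, 264 names in 11 lists, showed how little of the pathways the table covers. It held 18 of the 264 names, 13 of them among the 20 genes. Of 29 peroxisomal enzymes, 4 were in the table (AMACR, PHYH, CAT and IDH1), and these 4 rose, beside 32.3% of a table that was itself selected by p. The count was 3, without IDH1, under limma and with vehicle replicate 2 or vehicle replicate 3 left out. Of 16 peroxisome biogenesis genes the table held PEX3. Of 23 genes of fatty acid synthesis, elongation and desaturation it held ACACA and FASN, of which FASN fell. It held none of 18 genes of mitochondrial fatty acid oxidation and none of 20 of triglyceride synthesis and lipid droplets. Of 38 names of glycerophospholipid synthesis and remodelling it held LPIN2, LPGAT1 and LPCAT4, of which LPIN2 rose, and of 29 phospholipases and lipases it held MGLL, which fell, and LIPA, the lysosomal acid lipase, which rose by 0.41 on the log2 scale (SE 0.0852, adjusted p = 0.0175). PLA2G2A, a phospholipase that the table also holds, was not among the names of this list. The LIPA call was lost without vehicle replicate 2 (adjusted p = 0.0941), vehicle replicate 3 (0.081) or SSD replicate 2 (0.0736). Under limma it was lost too (0.0649 and 0.0648). Of 39 sphingolipid genes 3 were in the table, among them UGCG and ASAH1, the lysosomal acid ceramidase. ASAH1 rose by 0.33 (SE 0.0705, adjusted p = 0.0198), a call lost without vehicle replicate 1 (adjusted p = 0.0608), vehicle replicate 2 (0.109), vehicle replicate 3 (0.0815) or SSD replicate 2 (0.0827). LIPA and ASAH1 were left out of the 20 genes by their lysosome annotation. Of 16 genes of bile acid and oxysterol metabolism the table held AMACR, and of 16 targets or members of the lipid-sensing nuclear receptors it held MYLIP. A gene of these lists that is not in the table was not analysed here, so its absence is no measurement of its change.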

How the data were processed

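Libraries of AGS cells, 3 vehicle and 3 SSD, were compared in 1 table, whose columns were matched to samples by the sample titles. The estimated counts were deposited as the authors' expected reads per gene, 33.5% of them not whole, and were rounded before testing. The TPM were deposited as the authors computed them, on a scale set by every gene of a library, not by the table's. The authors' own fold changes, p-values and adjusted p-values are also in the table. Only the p-values were used, to find that the authors tested 11289 genes (518 rows show that ratio), and 1055 of the 1099 genes have an authors' adjusted p under 0.05. The submitters' processing notes name GRCh38.p13; aligner and counter are not given in the sources used here. No columns belonged to other samples, and no 2 libraries held identical values.

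Counts were tested with the quasi-likelihood test of edgeR 4.0.16 (R 4.3.3, robust fit) on all 1099 genes, all of which passed its filter on low counts (smallest mean 59). Library sizes were the median count to TPM ratio over 1029 genes with at least 5 TPM in every library. Benjamini-Hochberg adjustment ran over 11289 genes, with larger p-values assumed for the genes not listed, and the threshold was 0.05. The SE is the size of the log2 fold change divided by the root of the F statistic. Scripts were tested on simulated data. The precision of a level is the SD of 3 libraries, and depth is known only for the table's genes. Alternatives were TMM, DESeq2 size factors, the table total, the Wald test of DESeq2 1.42.0, limma 3.58.1 on log2 TPM with a pseudocount of 1 or of 0.1, no filter, a mean of at least 200 counts, a block for the replicate number, omission of each library, and adjustment over the table alone. Exact permutation tests used scipy 1.17.1.

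The genes, lists, markers and tests were chosen with earlier results of these data known. The rule was to name every gene with an adjusted p under 0.05, the 3 highest and 3 lowest by fold change, and genes of the lipid lists in the table. The other genes of the 20 were also named. Individual results of 1 of the 20 genes and of 1 list gene are not reported here, and both stay in the fits and counts. Coordinates and overlaps came from GENCODE release 29 (GRCh38), and promoters from RefSeq (GRCh38.p14).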

Additional observations from a re-analysis of the deposited data

How the results depend on the processing

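All 20 genes kept their direction in the 16 alternatives. Over genes and alternatives, 243 results kept their side of the threshold, 54 lost a call and 23 gained one. These counts include the setting without a filter, which repeats the reported fit, and adjustment over the table alone, which could lose no call. Against 7 genes higher, 4 lower and a median log2 fold change of −0.18, TMM normalization left 1 lower (median −0.10), DESeq2 size factors 1 (−0.08) and the table total 1 (−0.12). limma on log2(TPM + 1) called 3 higher and 0 lower (median −0.12), and on log2(TPM + 0.1) also 3 and 0 (−0.13), with 6 lower at an unadjusted p under 0.05 in both, whereas the DESeq2 Wald test called 4 lower. Adjustment over the table alone called 11 lower. Leaving out each library in turn gave 3 to 9 higher, 1 to 6 lower and a median of −0.20 to −0.12. In the whole table, 355 genes were higher and 229 lower. TMM gave 89 lower, DESeq2 size factors 85, the table total 123, and adjustment over the table alone 602. limma gave 116 higher and 76 lower with the pseudocount of 1, and 115 and 75 with that of 0.1, and leaving out libraries gave 115 to 379 higher and 68 to 330 lower. The cause of the changes was not tested, other than the fewer libraries, or the fewer genes adjusted over, that some settings use by construction.

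The labels give both groups replicate numbers 1 to 3. Deviations of same-numbered libraries from their group means correlated at −0.23, −0.01 and −0.03, and no library correlated best with its own number, so the numbers were not read as pairs. With the replicate number as a block, 3 of the 20 genes were higher and 1 lower, and of the 1099 genes 158 were higher and 94 lower. The block also lost the calls of INSIG1 (adjusted p = 0.0557), MYLIP (0.0767), LIPA (0.0685), ASAH1 (0.0658) and IDH1 (0.058).

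Depth outside the table is unknown, the table is a selection by p, and 3 libraries a group limit what can be called. How reads of genes that share exons or have copies were divided is not known. INSIG1 fell below the filter of 200 mean counts and has no value there.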
